A study of Mus musculus with 6 samples.

Results

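Mt4, Kprp, Sprr2d and Flg are genes of keratinocyte differentiation, and they were taken by name from the authors' deposited table, where each has a row of its own among 570 rows. The 4 genes were chosen with their levels in the control columns known, so those levels are a description and no test was made on them. The series profiled RNA from osteoclasts, the multinucleated myeloid cells that resorb bone, derived from wild-type C57BL/6 mice and induced with RANKL and M-CSF. Its 6 samples, all labelled day 3, are 3 controls given RANKL and M-CSF alone and 3 cultures that also received interferon-gamma (IFN-γ) during differentiation. The labels leave unsaid whether each sample had its own animal or culture, and the spread given below may be technical. Columns CTRL1 to CTRL3 carry the names of the controls and stand here as controls 1 to 3. The other 3 columns, FKD1 to FKD3, match no sample label and were not used, so nothing below compares IFN-γ with control.

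The outer layers of skin and other stratified squamous epithelia consist of keratinocytes that die as they differentiate and leave behind a cornified envelope, a shell of cross-linked protein beneath the cell surface. Small proline-rich (Sprr) proteins such as the product of Sprr2d are precursors of this shell, joined to other proteins by transglutaminases. Flg encodes profilaggrin, which is cut into filaggrin units that bundle keratin filaments and later break down to amino acids that hold water. Kprp encodes a keratinocyte proline-rich protein of the upper epidermis, and Mt4 a metallothionein, a small cysteine-rich metal-binding protein known in the mouse from differentiating squamous epithelium. None of these genes is part of the known programme of osteoclasts, and their presence at these values in columns named for osteoclast controls is unexpected.

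Mt4 lies on mouse chromosome 8 and Kprp, Sprr2d and Flg on chromosome 3, and all are annotated as protein-coding. Promoter windows are shown because the regulatory letters near the start are a property that the choice of genes did not use. Kprp had no window in the RefSeq promoter table and was not searched, so the windows are those of 3 of the 4 genes. Each runs from 250 bases before to 50 bases after the annotated start, 5′ to 3′, and comes from RefSeq on build GRCm38.p6. The letters in capitals are matches to 4 motifs searched on both strands: the TATA box (TATAAA), the AP-1 motif (TGANTCA), the core of the metal-response element (TGCACNC or TGCGCNC) and the octamer (ATTTGCAT). The Mt4 window is chr8:94136954-94137253, the Sprr2d window chr3:92338890-92339189 and the Flg window chr3:93273296-93273595, all on the plus strand. No 2 matches overlapped in these windows.
Mt4: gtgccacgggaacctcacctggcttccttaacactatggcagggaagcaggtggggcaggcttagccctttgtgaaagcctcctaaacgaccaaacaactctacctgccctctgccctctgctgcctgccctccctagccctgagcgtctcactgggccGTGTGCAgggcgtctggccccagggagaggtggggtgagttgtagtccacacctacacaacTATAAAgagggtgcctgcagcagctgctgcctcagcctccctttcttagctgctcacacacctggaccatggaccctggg
Sprr2d: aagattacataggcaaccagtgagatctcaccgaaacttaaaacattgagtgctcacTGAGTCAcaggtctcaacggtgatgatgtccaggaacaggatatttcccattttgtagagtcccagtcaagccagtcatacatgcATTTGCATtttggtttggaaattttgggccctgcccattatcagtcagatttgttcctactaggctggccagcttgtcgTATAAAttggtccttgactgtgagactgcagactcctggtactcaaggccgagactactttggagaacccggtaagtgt
Flg: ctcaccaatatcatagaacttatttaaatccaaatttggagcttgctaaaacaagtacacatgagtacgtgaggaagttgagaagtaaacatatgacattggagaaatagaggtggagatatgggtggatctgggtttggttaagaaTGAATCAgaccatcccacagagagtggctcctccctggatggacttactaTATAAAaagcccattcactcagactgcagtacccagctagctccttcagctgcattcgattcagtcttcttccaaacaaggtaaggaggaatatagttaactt

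All 3 windows held TATAAA on the plus strand. It began 30 bases before the start in Mt4, 29 bases before it in Sprr2d and 53 bases before it in Flg. Counted on either strand and at any position, these letters occurred in 13.6% of the 32851 windows of the RefSeq promoter table. A share for the plus strand over the whole window was not computed. In 1.99% of windows they were on the plus strand with a first base 20 to 40 bases before the start. The Mt4 and Sprr2d matches lie in that range. The AP-1 letters were found in Sprr2d, as TGAGTCA from 193 bases before the start, and in Flg, as TGAATCA from 103 bases before it. They occurred in 7.81% of all windows. The Mt4 window held the metal-response core once, on the minus strand (GTGTGCA as read on the plus strand, from 91 bases before the start), against 25.7% of all windows. The Sprr2d window also held the octamer, from 108 bases before the start, against 1.74% of all windows. A match describes letters in a window, and no binding was measured here.

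**Figure D1:**
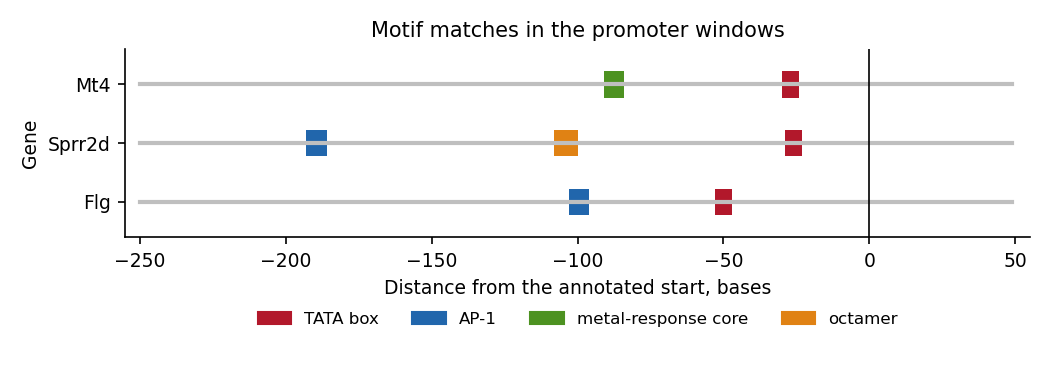
Matches to 4 motifs in the promoter windows of Mt4, Sprr2d and Flg, by distance in bases from the annotated start (vertical line); grey bars are the windows. TATAAA begins 30, 29 and 53 bases before the start, and AP-1 letters stand in Sprr2d and Flg.

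The deposited values are a normalised expression signal whose unit neither the table nor the labels name. Sequencing depth is unknown, so no counting error can be given, and the number of columns limits the precision. Because the table is by its name a list of differentially expressed genes, chosen by an unstated rule, a gene without a row cannot be read as unexpressed. In bulk RNA, fewer cells of a type and less RNA per cell cannot be told apart. The label of osteoclast could not be checked against its markers. Over all 21900 protein-coding symbols 2.35% have a row, so a short list with 1 row or none is not read as a result. Of 18 osteoclast markers, 1 has a row: Car2, the carbonic anhydrase that feeds acid secretion, at 10.9 ± 0.829 (SD, n = 3). Of 9 markers of macrophages and 9 of keratinocytes, among them Krt5, Krt14, Krt1 and Krt10, 0 have a row, as do 0 of 6 for fibroblasts and 0 of 3 for endothelium. Of 10 skeletal muscle markers 9 have a row, with a sum of 565, 578 and 569 in controls 1 to 3. Most of that sum came from Acta1, Mylpf and Mb (means 186, 153 and 150), and 6 of the 9 had a mean of 1 or more.

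Mt4 was the highest row of the whole table in every control. Controls 1 to 3 read 2321, 1960 and 1981 for this gene, a coefficient of variation of 9.72%. Controls 2 and 3 lay close together at 93.9% and 94.9% of the gene's mean, and control 1 stood above them at 111%. The gene alone held 17.0% of the summed values of all rows in control 1 and 14.7% in each of the others. The summed values of all rows were highest in control 1 (13620, against 13318 and 13508), but without Mt4 control 1 had the lowest sum, 11299 against 11358 and 11527. The highest value of Mt4 was 1.18 times its lowest.

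Kprp and Sprr2d stood about an order of magnitude below Mt4 and could not be separated from each other. For Kprp the values were 220.0, 229 and 231 in controls 1 to 3. For Sprr2d they were 226, 225 and 237. Their ranges overlapped, and Sprr2d was the higher of the pair in controls 1 and 3 and the lower in control 2. The ratio of Sprr2d to Kprp within a column, which does not depend on how a column was scaled, was 1.03, 0.981 and 1.03, with a mean of 1.01 ± 0.0262 (SD, n = 3). By mean they ranked 15 (Sprr2d) and 16 (Kprp) among the 570 rows.

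Flg, the filaggrin gene, was the lowest of the 4. Its values were 16.3, 16.8 and 16.2 in controls 1 to 3, and the highest value was 1.04 times the lowest. It ranked 64 by mean and held 0.122% ± 0.00366 (SD, n = 3) of the summed values. Within a column Kprp was 13.5, 13.7 and 14.3 times as high as Flg, and Sprr2d 13.8, 13.4 and 14.7 times. Neither range overlapped that of Flg.

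**Figure D2:**
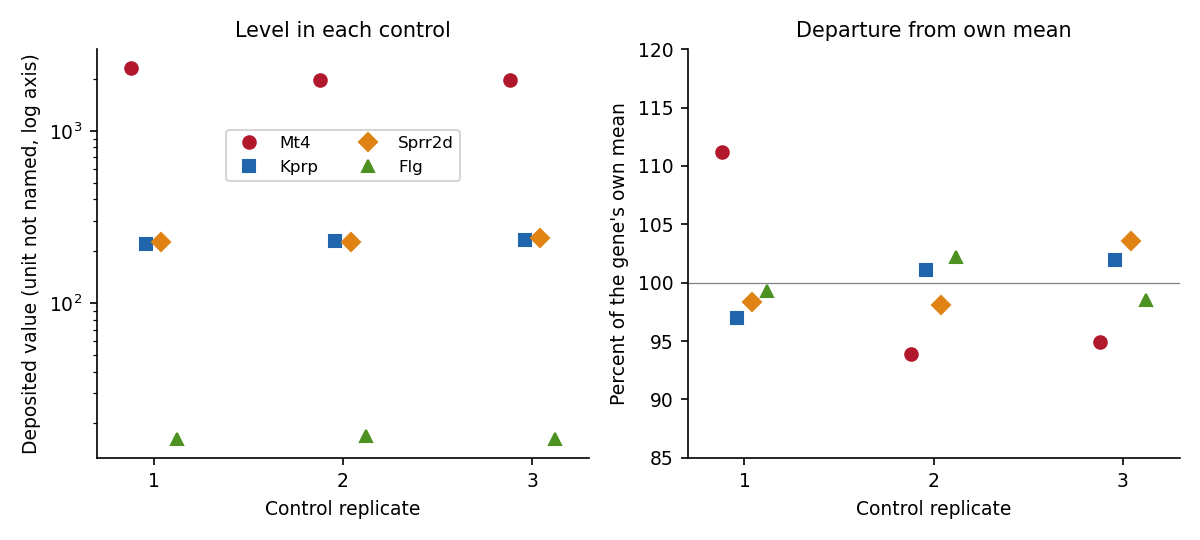
Left, deposited values of the 4 genes in controls 1 to 3 on a log axis; right, the same values as a percent of each gene's own mean, on an axis from 85 to 120 (points are single columns). Mt4 is at 111% in control 1 and at 93.9% and 94.9% in the others, while Kprp, Sprr2d and Flg stay between 97.0% and 104%.

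The order of the levels was therefore Mt4, then Sprr2d and Kprp together, then Flg. Levels of different genes can be compared only per length, and whether the values are per length is not stated. If they are not, dividing them by the longest transcript in GENCODE M21 (398 bases for Mt4, 681 for Sprr2d, 2729 for Kprp and 14497 for Flg) gives the same order, at 5245 ± 510 per kilobase for Mt4, 337 ± 10.4 for Sprr2d, 83.1 ± 2.19 for Kprp and 1.13 ± 0.0223 for Flg (SD, n = 3), and then separates Sprr2d from Kprp. The length of Flg is itself uncertain, because the gene encodes tandem repeats and its 10 annotated transcripts run from 756 to 14497 bases. With the shortest of them Flg would be at 21.7 per kilobase, still the lowest.

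**Figure D3:**
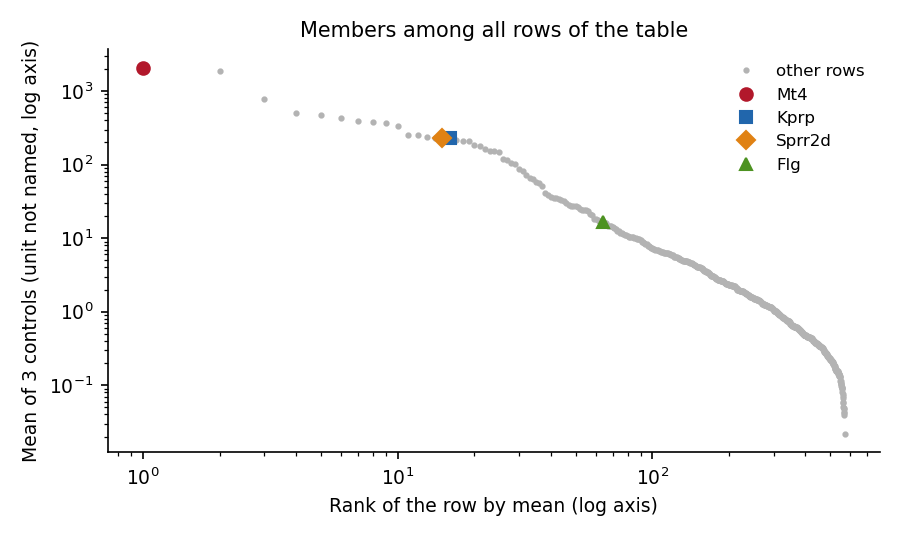
Mean of the 3 controls for each of the 570 rows against its rank, both on log axes, with the 4 genes marked. Mt4 is rank 1, Sprr2d and Kprp are ranks 15 and 16, and Flg is rank 64.

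Together the 4 genes held 20.4% of the summed values in control 1 and 18.3% in each of controls 2 and 3. Mt4 made up 83.4%, 80.6% and 80.3% of that share. Kprp, Sprr2d and Flg summed to 462, 471 and 485, or 3.39%, 3.54% and 3.59% of the values. Mt4 and the other 3 genes thus did not share a column of highest value: Mt4 was highest in control 1, Flg in control 2, and Kprp and Sprr2d in control 3. Of 85 rows whose mean was 10 or more, the highest value fell in control 1 for 25, in control 2 for 21 and in control 3 for 39.

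The coefficient of variation was 1.97% for Flg, 2.64% for Kprp and 3.08% for Sprr2d, all below the median of 4.46% for the 85 rows whose mean was 10 or more. The order of these 3 coefficients turned when control 1 or 3 was left out: without control 1 it was 2.62% for Flg and 0.572% for Kprp, and without control 3 it was 2.09% for Flg and 0.199% for Sprr2d. The coefficient of Mt4 was above that median, and 7 of the 85 rows had a larger one. Among the 29 rows whose mean was 100 or more, the median was 3.32%. Of these, 18 had a larger coefficient than Kprp and 15 a larger one than Sprr2d, so neither was unusual at its level. Mt4 had the largest coefficient of variation of the 29. This spread came from control 1: between controls 2 and 3 alone the coefficient for Mt4 was 0.753%. The ratio of Mt4 to Kprp was 10.6 in control 1 and 8.55 and 8.57 in controls 2 and 3, and the ratio of Mt4 to Sprr2d was 10.3, 8.71 and 8.34.

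**Figure D4:**
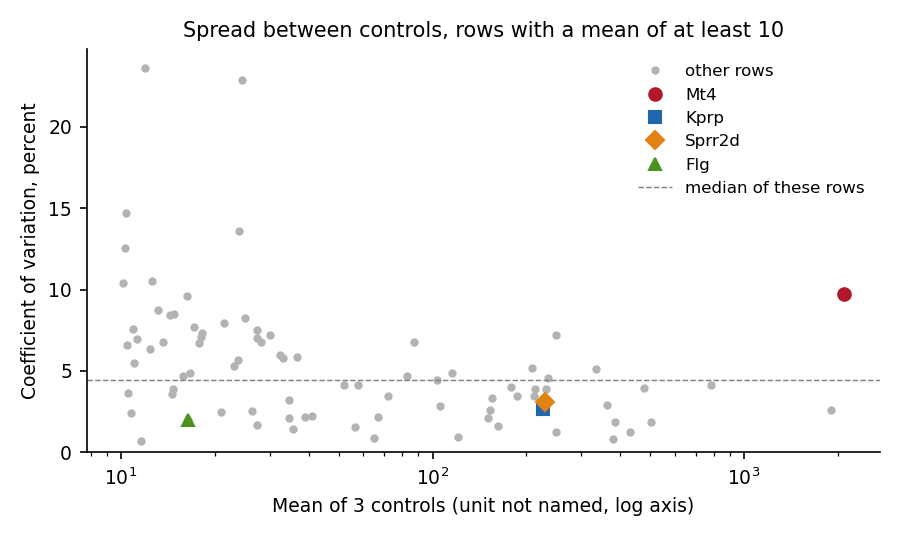
Coefficient of variation over the 3 controls, in percent, against the mean (log axis) for the 85 rows whose mean was 10 or more; the dashed line is their median, 4.46%. Mt4 lies above the line at 9.72%, and Kprp, Sprr2d and Flg lie below it.

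The rows closest to each gene were found by the root mean square difference of log2(value + 1) over the 3 controls. This measures mostly likeness in level and says little of the profile over the controls. Lce1i, named below as near to Kprp, fell over controls 1 to 3 (239, 232 and 221). Kprp rose over them (220.0, 229 and 231). Kprp and Sprr2d were each other's nearest row, at 0.03 log2 units. The next for both were the late cornified envelope genes Lce1i (0.08 from each) and Lce1g (0.10 from Kprp and 0.08 from Sprr2d), whose means were 231 ± 8.92 and 235 ± 10.8 (SD, n = 3). For Mt4 the nearest was the predicted gene Gm94 at 0.19, listed at 1859, 1887 and 1954, so it did not share the high value of control 1. Ide, the insulin-degrading enzyme, and Nupr1, a stress-responsive nuclear protein, followed at 1.41 and 2.05, more than a doubling away. The rows nearest to Flg were not keratinocyte genes: the interferon-induced antiviral gene Ifit1 (0.06), the small muscle protein gene Smpx (0.08) and the mitochondrial protein gene Chchd10 (0.11).

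Relatives of these genes are set beside a share of 2.35% of all protein-coding symbols that have a row. Of the 11 Sprr2 symbols on the list of small proline-rich genes 7 have a row, among them Sprr2d, which was chosen from the rows. Of the 4 others (Sprr1a, Sprr1b, Sprr3 and Sprr4) 0 do, which is near that share and is not read as a result. Sprr2d was the highest of these 7 rows. Its mean was 4.41 times that of the next, Sprr2f, which stood at 49.5, 53.3 and 53.1 in the controls. Sprr2g followed at 24.0, 23.7 and 27.4, then came Sprr2h at 10.3 ± 1.30, Sprr2e at 5.97 ± 0.721, Sprr2i at 4.77 ± 0.973 and Sprr2b at 1.27 ± 0.109 (SD, n = 3). The 3 controls of Sprr2d, Sprr2f and Sprr2g did not overlap with one another, whereas those of Sprr2e and Sprr2i did. Sprr2d held 69.8% ± 0.405 of the summed values of the 7 Sprr2 rows, and the values of family genes without a row are unknown. Without Sprr2d, which was chosen with its level known, the 6 other means ran from 1.27 to 51.9, beside a median of 1.18 over all rows. The Sprr2 genes are close copies of one another, and how the counting divided shared reads among them is uncertain.

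Of 7 genes of the filaggrin family, whose proteins fuse an S100-type calcium-binding region to a long repeat, Flg was the 1 with a row; Flg2, Hrnr, Rptn, Tchh, Tchhl1 and Crnn have none. Mt4 was the 1 of 4 metallothionein genes with a row. Its direct neighbours in gene order on chromosome 8, Mt1, Mt2 and Mt3, have none. Flg and Mt4 were chosen from the rows, and 2.35% of all protein-coding symbols have a row. Relatives without a row are therefore not read as a result. Of 13 further envelope genes of the epidermal differentiation complex, the cluster on chromosome 3 that holds many cornified envelope genes, Kprp and the proline-rich gene Prr9 have a row. Prr9 was at 4.29, 4.29 and 4.99, far below Kprp. The loricrin and involucrin genes, which encode major envelope proteins, have none.

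**Figure D5:**
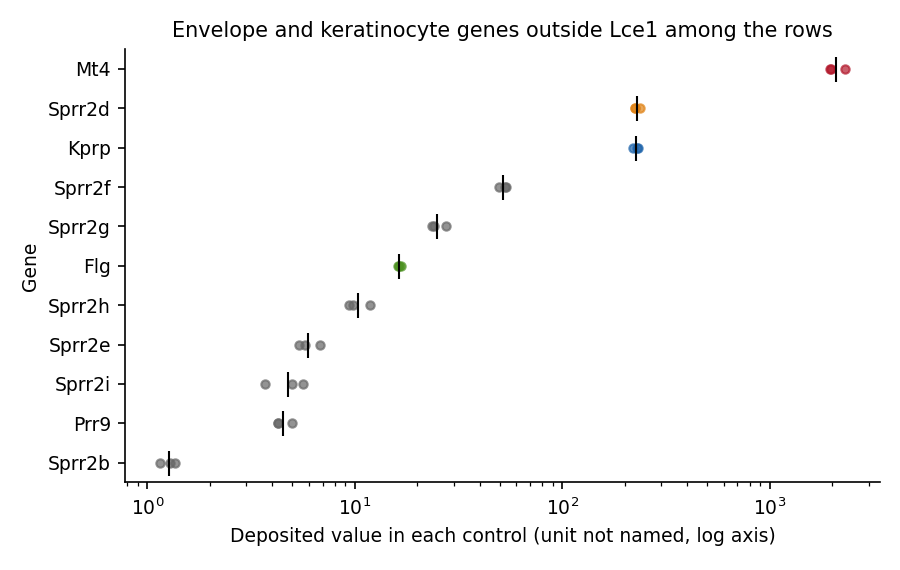
Values in each control (dots) and their mean (black bar), on a log axis, for the 11 genes with a row on the lists of filaggrin family, small proline-rich, metallothionein and other envelope genes outside Lce1. Mt4 is highest, Sprr2d and Kprp coincide, and the other 6 Sprr2 genes spread from 1.27 to 51.9.

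The 6 other lists of keratinocyte genes outside Lce1 had no row at all. They hold 82 symbols: keratins of epidermis and oral epithelium, transglutaminases and the proteases and deiminases that act on filaggrin, enzymes of barrier lipids, desmosome proteins, keratinocyte transcription regulators, and other secreted or cytosolic keratinocyte proteins. Of the 121 symbols on all 10 lists, 11 have a row, 4 of them the genes described here. Over all 21900 protein-coding symbols 2.35% have a row, so lists without a row are not read as a result about their genes. The lists were written with earlier results of these data known, and the counts were not tested.

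In gene order on chromosome 3, Sprr2d and Flg bound a stretch of 40 protein-coding genes in RefSeq, with Kprp inside it between Lce1k and Lce1l. Of these 40, 22 have a row in the table, 14 of them the whole Lce1 family. Outside Lce1 and the 3 genes described here, which were chosen from the rows, 5 of 23 genes have one, or 21.7%, beside 2.35% of all 21900 protein-coding symbols (515 with a row). The stretch was bounded by Sprr2d and Flg themselves, so this share is a description and was not tested. The 5 are Sprr2e, Sprr2f, Sprr2h, Sprr2i and 2310050C09Rik, the last at 26.3 ± 0.670 (SD, n = 3), and 4 of them are close copies of Sprr2d. Sprr2b and Sprr2g have a row but are not among the 40 genes. The place of the rows along the stretch was not tested, and the stretch starts at a gene chosen from the rows. Starting at Sprr2d, the first 5 genes have a row, the next 8 do not, and the Lce1 block with Kprp follows. Of the 4 genes just before Flg, Lce1m has a row, at 5.29 ± 0.349, and Tdpoz8, Crnn and Flg2 have none.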

How the data were processed

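RNA sequencing values came from the authors' deposited table of 570 genes. Its values are a deposited normalised signal, never negative, in a unit that is not named. Of upstream steps, Bowtie2 (2.4.4) and 2 builds, GRCm39 and GRCh37, appear in the submitters' processing notes with no role; how values were quantified is not stated there. Columns were matched to samples by name: 3 columns match the control titles, 0 match an interferon-gamma sample, and 3 columns match no sample and were not used. The planned limma test of interferon-gamma against control was therefore not run.

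For each gene the mean, SD and coefficient of variation over 3 controls, its rank and its share of the summed rows were computed. Genes and lists were chosen with earlier results of these data known. The genes named are the 4 members, the 3 nearest rows to each (pseudocount 1) and the genes of the lists, with those found by gene order added after their values were seen. All 184 list symbols were found in RefSeq (GRCm38.p6), which was used for names, gene order and promoter windows; transcript lengths are from GENCODE M21. The search for nearest rows was tested on simulated data with planted near-copies, and the SD on a small made-up example. The other steps had no such test. Python 3.11.15, pandas 2.3.3, numpy 2.4.6 and matplotlib 3.10.9 were used.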

Additional observations from a re-analysis of the deposited data

How the results depend on the processing

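No paired analysis was possible because 0 columns matched an interferon-gamma sample. Levels of the 4 genes moved by less than 1 SD with columns rescaled to 1 total. The sums of the columns were close (13620, 13318 and 13508), so rescaling could hardly move a mean and shows no robustness. Of 3 values, neither the median nor the mean without any 1 control can lie as far as 1 SD from the mean. For those settings a smaller move was fixed in advance and shows no robustness, and the same holds for ratios without any 1 control. Without any 1 control the level of Mt4 ran from 1970 to 2151, and its ratio to Kprp from 8.56 to 9.56. Without 1 control the rank of Kprp ranged from 14 to 16, of Sprr2d from 13 to 15 and of Flg from 62 to 65. Coefficients of variation rest on 3 values and changed by over 1.5 times without 1 control, to as little as 0.753% for Mt4 and 0.572% for Kprp (both without control 1), 0.199% for Sprr2d (without control 3) and 0.524% for Flg (without control 2), so the order of the genes by spread depends on single controls. With rescaled columns the coefficient was 1.53 times as large for Flg, and Kprp (3.49%) passed Sprr2d (3.05%). The planned division by coding length was not run, since no protein table was used here; transcript length took its place, chosen after seeing the data. If the values are per length, their product with transcript length is proportional to sequenced fragments. On that scale the ratio of Sprr2d to Kprp, which overlap by level, was 0.252, and that of Mt4 to Kprp was 1.34 in place of 9.22. Sprr2d fell below Flg with the longest Flg transcript (ratio 0.656) but not with the shortest, where the products were 156 for Sprr2d and 12.4 for Flg. The nearest rows were recomputed with pseudocounts of 0.1 and 5, and the same 3 rows remained for each gene. Unknown depth limits any statement on counting error.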
